A study of Drosophila melanogaster with 3 samples.

Results

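Of the 9419 Rel peaks in the optimal list, 1122 (11.9%) had their summit at a divergent promoter, the stretch of DNA from which 2 neighbouring genes are transcribed away from each other. A summit was counted here when it lay within 500 bp of annotated transcription start sites (TSSs) of protein-coding genes on both strands, with the minus-strand TSS at the lower coordinate and the pair at most 1000 bp apart. A further 3270 summits lay within 500 bp of the TSSs of a single gene and are called one-gene promoter summits. That gene may itself be in a divergent pair, if its partner's TSS is more than 500 bp from the summit. Another 109 lay near several genes without a divergent pair, and 4918 lay near no TSS. Divergent promoters thus held 24.9% of the promoter summits.

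The peaks come from chromatin immunoprecipitation sequencing (ChIP-seq) of whole wandering Drosophila melanogaster larvae of the third instar, with both sexes pooled. All 3 biological replicates carried the same transgene, a stable N-terminal GFP fusion of Rel, and the fusion was precipitated with an antibody against GFP. There is 1 group and no second genotype, treatment or time, so each comparison below is between classes of promoter and not between conditions. Replicate 2 differed from the others at these promoters, and results that turn on it are given with and without it. Untagged larvae and the control library were not analysed here. Whole larvae mix many cell types, so strong binding in few cells and weak binding in many cannot be told apart.

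Rel (Relish) is the NF-κB transcription factor of the IMD pathway, the Drosophila immune pathway that responds mainly to bacterial peptidoglycan. Upon signalling the precursor is cleaved, and its Rel homology domain enters the nucleus and binds κB sites in the promoters of antimicrobial peptide genes. Divergent promoters are frequent in the compact fly genome and often serve housekeeping genes, whose core promoters tend to carry the DNA replication-related element (DRE) and Ohler motifs in place of a TATA box.

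The following stretches show the sequence that lies between paired TSSs of example members with a match near the summit and no annotated exon in between. These examples are not always the members of highest signal with a match, since some stronger ones were left out. All are plus-strand sequence of dm6 (RefSeq release 6), 5′ to 3′, from the minus-strand TSS to the plus-strand TSS. Capitals mark κB consensus matches, the DRE core TATCGATA and the Ohler1 core GGTCACAC on either strand. The first 2 were chosen for κB, the third for DRE and the last 2 for Ohler1, and they lie at chr2L:3018309-3018507, chr3R:23767489-23767711, chrX:11854932-11855021, chr3R:9404270-9404384 and chrX:1922875-1922980.
CG17224/CG17264: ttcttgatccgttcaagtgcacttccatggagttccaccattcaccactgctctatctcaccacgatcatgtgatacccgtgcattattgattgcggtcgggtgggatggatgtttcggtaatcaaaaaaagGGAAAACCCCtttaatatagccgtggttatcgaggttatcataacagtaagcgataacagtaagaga
CG10214/CG10375: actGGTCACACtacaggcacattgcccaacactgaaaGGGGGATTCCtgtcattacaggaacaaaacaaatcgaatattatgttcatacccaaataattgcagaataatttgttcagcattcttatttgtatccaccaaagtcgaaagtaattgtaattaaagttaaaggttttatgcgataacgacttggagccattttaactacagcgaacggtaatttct
CG10347/ATP7: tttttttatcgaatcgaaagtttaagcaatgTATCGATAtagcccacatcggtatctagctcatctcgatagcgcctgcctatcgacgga
CG9356/CG8135: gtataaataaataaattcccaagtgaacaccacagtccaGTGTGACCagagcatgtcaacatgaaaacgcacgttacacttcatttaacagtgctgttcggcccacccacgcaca
eIF2Bepsilon/Ocrl: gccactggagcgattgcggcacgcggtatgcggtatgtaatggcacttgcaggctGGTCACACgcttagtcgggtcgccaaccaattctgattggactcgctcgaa

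For members whose TSSs lie farther apart, or whose summit lies in one of the genes, 30 bases round the κB match are shown on the strand of the match, with the match in capitals. The match of mxt/CG11927 (chr2L:4847683-4847712, minus strand) was centred 3.5 bp from the summit, and those of CG44008/CG14933 (chr2L:11842627-11842656, plus strand) and Cht11/CG4558 (chrX:6849891-6849920, plus strand) 0.5 bp from it. These lie closer than most, since the median distance over the 39 members with a κB match was 40.5 bp.
mxt/CG11927: taaaattttaGGGAGTTTCCcctgaagtat
CG44008/CG14933: gtagtgtcgcGGGAATTTCCcaatctacac
Cht11/CG4558: tgcgaccaacGGGAAATCCCccacaaagac

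The first comparison asked how often a divergent pair had a Rel summit, against promoters of single genes without a divergent partner. The annotation held 2667 divergent gene pairs made of 5052 genes, 36.2% of the 13945 protein-coding genes. Of these pairs, 1095 had a member (41.1%, exact 95% interval 39.2 to 43.0), against 22.4% of 8494 one-gene promoters (interval 21.5 to 23.3) and 33.5% of all protein-coding genes. In the 9419 peaks of highest signal of each replicate, the share of pairs was 38.3% in replicate 1, 45.03% in replicate 2 and 40.7% in replicate 3. One-gene promoters gave 22.7%, 22.1% and 22.0% in the same lists. The pairs were higher in 3 of 3 replicates, by 15.5, 22.9 and 18.7 percentage points (19.05 ± 3.72, SD, n = 3; exact two-sided sign-flip permutation p = 0.25, the smallest that 3 replicates can give). The intervals cover counting error only, and this permutation test over 3 replicates cannot reach 0.05. Without replicate 2 the difference in the optimal list, cut to summits matched in both other replicates, was 13.4 points. With a limit of 250 bp in place of 500 bp to each TSS it was 8.72 points.

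Most members belonged to 1 pair. A single gene pair accounted for 1067 members, and 55 members had several, up to 21 pairs at 1 summit. Conversely, 107 pairs held more than 1 member. In 127 members the bodies of the named genes overlapped. Occupancy was similar on the large arms, from 38.5% of pairs on X to 43.9% on 3R. On chromosome 4, which is largely heterochromatic, 1 of 11 pairs had a member.

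Occupancy depended on the distance between the TSSs. Of pairs 1 to 50 bp apart 54.7% had a member, of those 51 to 100 bp apart 60.5%, 101 to 200 bp 44.0%, 201 to 300 bp 60.3% and 301 to 400 bp 55.8%. The share was 32.2% at 401 to 500 bp, 16.3% at 501 to 600 bp, 5.54% at 601 to 800 bp and 2.07% at 801 to 1000 bp. The lower share at 101 to 200 bp than in the neighbouring bins on either side was seen in all 3 replicates, at 42.3%, 46.2% and 44.5%, against 62.1%, 63.7% and 58.5% at 51 to 100 bp. The rule itself lowers the shares of distant pairs, because the window within 500 bp of both TSSs shrinks as they move apart. In a window of fixed size, 250 bp either side of the midpoint, the shares were 49.2%, 56.1%, 41.5%, 56.5%, 51.3%, 28.8%, 19.7%, 11.1% and 7.25% in the same order of distance. This window too reaches less of the sequence near the TSSs as they move apart, and above 500 bp it holds neither TSS, so it does not remove the effect of distance on what is counted.

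**Figure D1:**
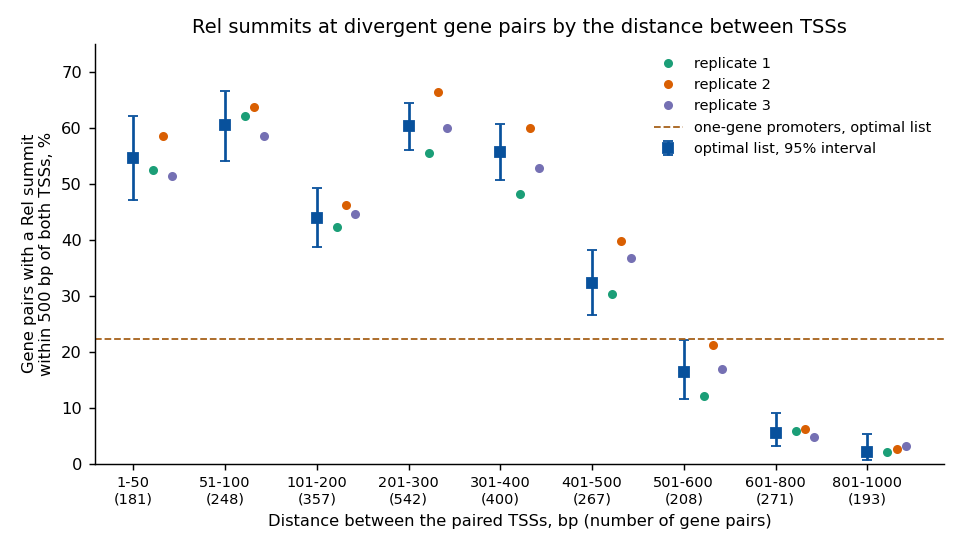
Share of divergent gene pairs with a Rel summit within 500 bp of both TSSs (percent, y axis) by the distance between the TSSs (bins in bp, number of pairs in brackets). Squares are the optimal list with exact 95% intervals, circles the 3 replicates, and the dashed line is the 22.4% of one-gene promoters. Bins up to 400 bp lie between 44.0% and 60.5%, and those above 600 bp at 5.54% or less.

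In an alternative added after seeing the data, windows of equal size were compared. Of 1328 pairs at most 300 bp apart, 51.4% had a summit within 250 bp of the midpoint, against 17.1% of one-gene promoters within 250 bp of the outermost TSS. The differences were 31.2, 39.2 and 33.8 points in replicates 1, 2 and 3. Pairs farther apart were left out here, and those more than 400 bp apart gave 28.8% or less in the same midpoint window. These differences thus hold for close pairs only and are not comparable with the difference over all pairs. With each gene as the unit and a summit counted within 500 bp of its own TSS, whether or not the partner was in reach, the difference in the optimal list was 29.5 points. Counting only members, 41.4% of the genes in pairs had one.

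The second question was where in a divergent promoter the summit lay. Between the paired TSSs lay 765 members (68.2%, exact 95% interval 65.4 to 70.9), while 181 lay in the minus-strand gene and 176 in the plus-strand gene. The stretch between the TSSs made up 38.9% of the window that the rule allows, averaged over the same members. In the replicates the share between the TSSs was 62.3%, 69.9% and 67.9%, against 37.5%, 39.9% and 39.5% of the window. The excess was 24.75, 29.99 and 28.35 points (27.7 ± 2.68, SD, n = 3; exact two-sided sign-flip permutation p = 0.25), and it was positive in 3 of 3 replicates. It was 13.2 points when summits had to lie within 250 bp of each TSS.

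The median member summit was 70 bp from its nearer TSS, 190.5 bp from its farther TSS and 70.5 bp from the midpoint of the pair. The median distance between the TSSs was 247 bp in pairs with a member and 408 bp in pairs without one. Upstream of the nearest TSS lay 67.9% of members and 59.7% of one-gene promoter summits. The tails of the members' distribution are shortened by the rule, since a summit between the TSSs cannot be farther from the nearer one than the midpoint. The 3 replicate summits matched to a member spanned a median of 44 bp, against 40 bp at one-gene promoters. The summit of the optimal list is not part of this span. It sets the scale on which single positions can be read.

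**Figure D2:**
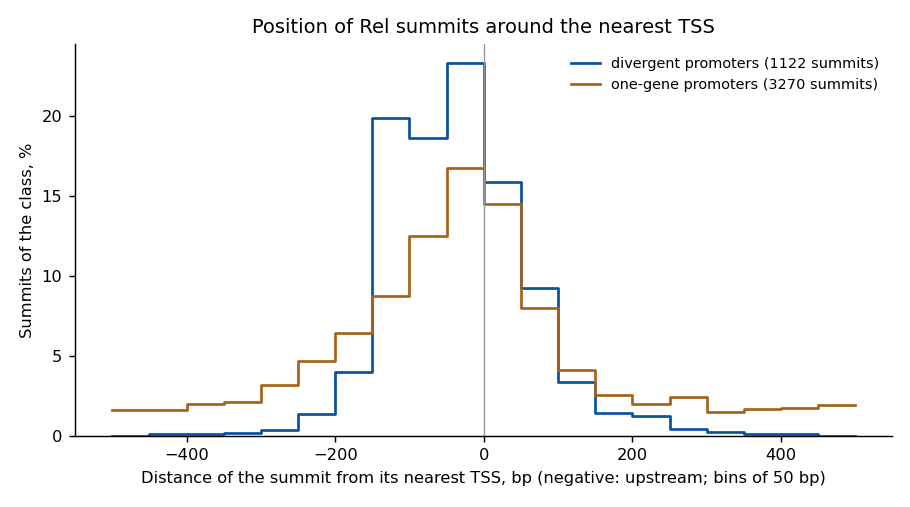
Distance of the summit from its nearest TSS (bp, x axis, negative upstream) against the percent of summits of the class in bins of 50 bp. The blue line is the 1122 divergent promoter summits and the brown line the 3270 one-gene promoter summits. Members concentrate between 150 bp upstream and 50 bp downstream.

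At the limits of the rule, the members with the farthest TSS just inside 500 bp were CG9853/CG14647 and CG9727/Zif (both 500 bp) and osi/tweek (499 bp). Just outside were ubl/koi (501 bp), DnaJ-H/Sirt1 (502 bp) and tefu/Hsc70-4 (503 bp), so small shifts of a summit move such peaks in or out. Their deposited signals spanned 201 to 5842 inside and 200 to 860 outside. The largest distance between TSSs among members was 834 bp at Cad96Ca/CG13654, followed by 830 bp at Tsp42Eq/Tsp42Er, 819 bp at CG44250/CG13321, 696 bp at mura/RnpS1 and 685 bp at stg/CG45544. The smallest distances were 1 bp at CG4730/CG5039 and Atg6/Pisd, 2 bp at Zpr1/CG44532 and 6 bp at amx/Dsor1 and CG7246/HP1b. Atg6 is the fly Beclin, an autophagy protein, Dsor1 a MAP kinase kinase and HP1b a heterochromatin protein 1 family member.

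Peak height was then compared. Among members the signal that the authors deposited in the optimal list spanned 191.5 to 14355, with a median of 423.6, against a median of 380 at one-gene promoters. By rank, 12 members were among the 100 strongest peaks of the list and 61 among the 500 strongest. These counts are near the 11.9% of all peaks that were members. One-gene promoter summits, 34.7% of all peaks, gave 52 and 215, above their share. Of the members 25.7% were in the 25% of highest signal, which held 25.3% of one-gene summits. In the 25% of lowest signal lay 20.1% of members and 23.9% of one-gene summits. For comparison over replicates, relative signal was used, the signal of the matching peak in a replicate divided by the replicate's median over matched optimal peaks.

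Replicate 2 stood apart at these promoters. The median relative signal of members was 1.00 in replicate 1, 1.22 in replicate 2 and 1.06 in replicate 3, against 1.03, 1.00 and 1.01 at one-gene promoters. On the log2 scale the difference was -0.04, 0.28 and 0.08 (0.11 ± 0.16, SD, n = 3; exact two-sided sign-flip permutation p = 0.5), higher in 2 of 3 replicates, so the classes did not differ beyond the spread between replicates. Without replicate 2, on summits matched in both others, the difference was 0.07. Replicate 2 gave the highest of the 3 relative signals in 53.1% of the 987 members with a value in each, and in 39.7% of one-gene summits. The reason for this was not tested.

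Summit matching also varied between replicates, with the classes apart in opposite directions in replicates 1 and 2. Among a replicate's 9419 strongest peaks, 79.1% of members had a match within 100 bp in replicate 1, 89.5% in replicate 2 and 86.5% in replicate 3. One-gene promoter summits gave 84.5%, 82.0% and 86.5%. In all 3 replicates 748 members were matched (66.7%), in 2 replicates 249, in 1 replicate 120 and in none 5, against 64.3% of one-gene summits in all 3. Without replicate 2 the difference between the classes went from 2.36 to -3.16 points. It was 5.35 points without replicate 1 and 1.95 points without replicate 3. The optimal list was derived from these replicates, so the overlap is not independent of it.

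**Figure D3:**
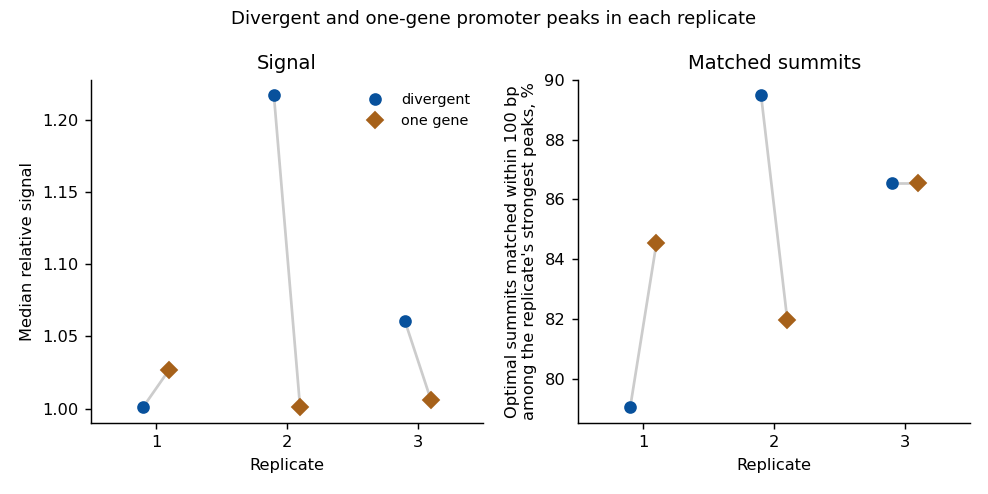
Median relative signal (left) and percent of optimal summits matched within 100 bp among the 9419 strongest peaks of a replicate (right) for each replicate, with divergent promoters as blue circles and one-gene promoters as brown diamonds; neither y axis starts at 0. Divergent promoters are above one-gene promoters in replicate 2 (1.22 against 1.00, and 89.5% against 82.0%) and below them in replicate 1.

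The strongest members stood at genes of varied known functions and at genes known only by CG numbers. The highest, at rank 8 of the list, was shared by Charon, an ankyrin-repeat nuclear IκB protein of the IMD pathway, and CG4887 (chr2L:1172072-1173392, TSSs 204 bp apart). Its relative signal was 26.3 in replicate 1, 46.3 in replicate 2 and 33.5 in replicate 3 (35.4 ± 10.1, SD, n = 3). All 3 values are far above 1, the median by construction, and replicate 2 is the highest. The summit lay 51 bp inside Charon, and neither κB, DRE, Ohler1, Ohler6, Ohler7 nor GAGA matched within 100 bp of it.

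At rank 20 was the promoter of pst, an antiviral gene, and Sec63, a component of protein translocation into the endoplasmic reticulum. The relative signals there were 27.1, 29.6 and 26.8, close to each other. Rank 22 lay between mxt, an eIF4E-binding regulator of translation, and CG11927, with 18.2, 35.2 and 25.6 in replicates 1, 2 and 3. Rank 30 was at bigmax, the partner of the sugar sensor Mondo, and Hmu, a mucin of hemocytes and gut, with 18.1, 31.0 and 22.5. Replicate 2 was highest at each of these.

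Rank 52 was 133 bp from the TSS of Spn27A, a serpin that restrains melanization and Toll signalling, opposite CG34310, with 17.5, 20.4 and 18.0. Rank 54 was 35 bp from the TSS of Dronc, the initiator caspase of apoptosis, opposite CG6685, with 13.1, 25.8 and 16.1. Spn27A and pst had the smallest SDs among the first 6 members, at 1.56 each, and Charon, which had the highest mean, the largest. These SDs are not scaled to the mean. The ranks of neighbours such as Spn27A (18.7 ± 1.56) and Dronc (18.3 ± 6.66) do not differ beyond the spread between replicates.

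The rest of the 20 strongest members had mean relative signals from 10.8 to 16.01. They included fzy, the Cdc20 activator of the anaphase-promoting complex, opposite cni, a cargo receptor of the endoplasmic reticulum (rank 96). PolD1, the catalytic subunit of DNA polymerase delta, was opposite Hip14, a palmitoyltransferase (rank 128). LysRS, the lysyl-tRNA synthetase, was opposite Hecw, a ubiquitin ligase (rank 112), and mRpS10, a mitochondrial ribosomal protein, opposite Art3, an arginine methyltransferase (rank 130). Top3beta, a topoisomerase, was paired with wuho (rank 111), Ide, the insulin-degrading metalloproteinase, with RhoBTB (rank 145), and tamo, which modulates nuclear import of Dorsal, with Zfrp8 (rank 152). Among the remaining pairs were CG3744/CG11089, osi/tweek, CG16787/alpha-Catr, CG17224/CG17264, CG4730/CG5039 and Arfip/CG17721. Replicate 2 was highest at 19 of the 20, and Art3/mRpS10 was the exception, with 12.7, 10.4 and 12.8. The same count was not made for the strongest one-gene peaks.

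**Figure D4:**
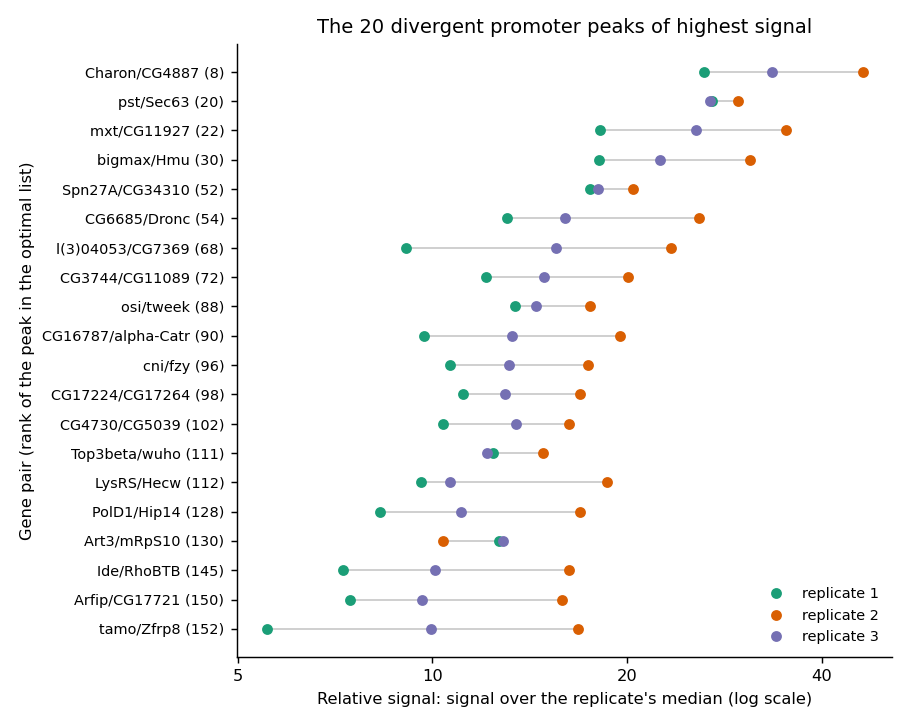
Relative signal (x axis, log scale) of the 20 divergent promoter peaks of highest signal in replicates 1, 2 and 3, with the rank in the optimal list in brackets after each gene pair; grey lines join the lowest and highest replicate. Charon/CG4887 leads with 26.3 to 46.3, and replicate 2 is highest at 19 of the 20.

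Sequence at the summits was compared between the classes. A match was counted on either strand within 100 bp of the summit, in a 201-bp window. κB is given by its 10-base consensus, DRE and Ohler1 by the cores spelled above, GAGA as GAGAG and the E-box as CAGCTG. Ohler6 is A or G, then GTAT, A or T, and TTT. Ohler7 is CA, G or T, C, any base, CT, and A or G. The TATA box is TATA, A or T, AA, and A or G, and the initiator is TCAGT followed by C or T. Matches of different motifs may overlap, and a match is a description of the sequence only.

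κB matches were present at 39 members (3.48%, exact 95% interval 2.48 to 4.72) and 180 one-gene promoter summits (5.51%, interval 4.75 to 6.34). Windows 1000 bp to either side of members held a match in 2.09% of 2244 cases, and the same window at the outermost TSS of all 13945 genes in 1.38%. Per replicate the share in divergent summits was 3.25%, 3.19% and 3.73%, against 5.07%, 5.85% and 5.31% at one-gene promoters. The divergent share was lower in 3 of 3 replicates, with differences of -1.82, -2.66 and -1.58 points (mean -2.02 ± 0.57, SD, n = 3; exact two-sided sign-flip permutation p = 0.25). With a relaxed form of the consensus the difference was -5.90 points, at 11.2% of members against 17.1%. The flanks of members held this form in 9.2% of cases.

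Motifs of housekeeping promoters went the other way. DRE lay at 119 members (10.6%, interval 8.87 to 12.6) and 5.14% of one-gene summits, against 0.446% of the members' flanks and 7.84% of all outermost TSSs. The difference was 6.31, 5.30 and 5.23 points in replicates 1, 2 and 3 (5.61 ± 0.60, SD, n = 3; exact sign-flip permutation p = 0.25). Ohler1 lay at 134 members (11.9%, interval 10.1 to 14.0) and 6.15% of one-gene summits, with differences of 5.41, 4.29 and 4.92 points (4.87 ± 0.56, SD, n = 3; exact sign-flip permutation p = 0.25). Flanks held Ohler1 in 0.535% of cases and all outermost TSSs in 6.76%. Both motifs were more frequent in members in 3 of 3 replicates. The size of both differences depended on the window, with 2.71 points for DRE and 1.66 for Ohler1 within 50 bp of the summit and 10.6 and 12.1 points within 250 bp. A member's window can reach the core promoters of 2 genes, and members lay closer to a TSS (median 70 bp, against 95 bp at one-gene summits). The part of this in these differences, and in those of the motifs below, was not tested. Midpoints of all 2667 pairs held DRE in 8.55% and Ohler1 in 5.40% of cases.

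Ohler6 and Ohler7 were at 8.38% and 23.4% of members, against 4.495% and 13.3% of one-gene summits. The E-box was at 18.0% against 13.4%, and the TATA box at 14.2% against 9.57%. GAGA, the motif bound by GAGA factor, was less frequent in members, at 15.3% against 32.8%, and below the 22.5% of their flanks. The initiator was at 17.0% against 24.1%. Each of these 6 differences had the same sign in 3 of 3 replicates (exact sign-flip permutation p = 0.25 for each), among 14 motif forms compared.

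**Figure D5:**
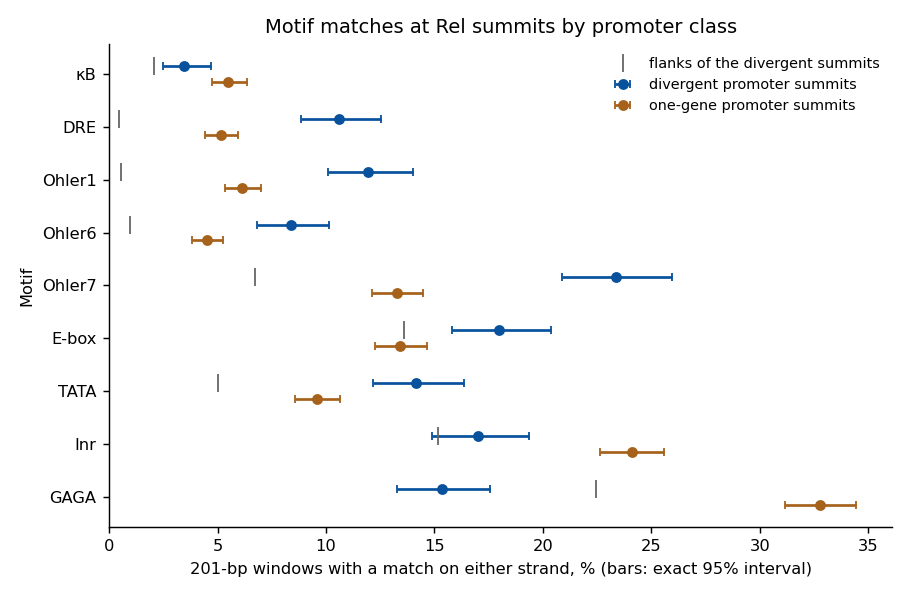
Percent of 201-bp windows with a match on either strand (x axis) for 9 motifs, at divergent promoter summits (blue), one-gene promoter summits (brown) and windows 1000 bp from the divergent summits (grey ticks); bars are exact 95% intervals and cover counting error only. DRE, Ohler1, Ohler6, Ohler7, the E-box and the TATA box are higher at divergent summits, and κB, GAGA and the initiator lower.

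Midpoints of pairs with and without a member were compared in windows of the same size. DRE was at 11.3% of 1095 midpoints with a member and 6.62% of 1572 without, and Ohler1 at 7.21% and 4.13%. Ohler7 was at 20.8% and 11.1%, and κB at 1.83% (interval 1.12 to 2.81) and 0.763% (interval 0.395 to 1.33). The κB shares rest on 20 and 12 midpoints. The relaxed form of κB went the other way, at 5.66% and 6.17%, with intervals that overlap. GAGA was at 14.3% and 14.7% of the midpoints, with intervals that overlap almost wholly, and the TATA box at 18.1% and 19.02%. The 2 kinds of pair also differ in the distance between their TSSs, with medians of 247 and 408 bp, and the part of that in these shares was not tested.

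Members with a κB match had higher signal than other members. Their median relative signal was 1.57, 1.97 and 1.78 in replicates 1, 2 and 3, against 1.00, 1.20 and 1.05 for members without a match. The log2 difference was 0.66, 0.72 and 0.77 (0.71 ± 0.056, SD, n = 3; exact sign-flip permutation p = 0.25), positive in 3 of 3 replicates. Of the 39, 19 (48.7%) were in the 25% of highest signal, and 79.5% lay between the TSSs. The same difference at one-gene promoters was 0.73, 1.02 and 0.81. Members with DRE were 0.12 lower on this scale (-0.12, -0.02 and -0.23), and those with Ohler1 differed by 0.01, 0.14 and -0.03, which is within the spread between replicates. Neither κB, DRE nor Ohler1 was found at 848 members (75.6%). κB occurred together with Ohler1 at 6, with DRE at 2 and with both at 1.

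The 10 κB members of highest signal, after mxt/CG11927, began with CG16787/alpha-Catr (rank 90) and CG17224/CG17264 (rank 98). At rank 284 the summit lay between Vamp7, a SNARE of late endosomes, and Sting, the cyclic dinucleotide receptor that signals to Relish. Its relative signal was 7.45, 8.59 and 8.41 in replicates 1, 2 and 3, with the match 50.5 bp from the summit. At rank 317 it lay between CG43691 and AttC, the attacin C antimicrobial peptide gene, with 6.17, 10.3 and 6.32. The AttC match was 78.5 bp from the summit, toward the AttC TSS. The others were CG44008/CG14933 (rank 312), mRpS28/CG5323 (372), CG10214/CG10375 (440), Cht11/CG4558 (447), where Cht11 is a chitinase, and stau/Spn55B (507), where stau encodes the RNA-binding protein Staufen. Mean relative signals of these 10 ran from 5.67 to 26.3. Replicate 2 was highest at 29 of the 36 κB members with 3 values (80.6%), against 52.05% of members without a match. It also had the highest median at one-gene summits with a κB match (1.675, 1.988 and 1.724 in replicates 1, 2 and 3).

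Immune genes were described by pathway. The lists were chosen with earlier results of these data known, so their counts are not independent evidence. Of 21 IMD pathway genes 15 were in a divergent pair, and 9 of the 15 had a member (60%, interval 32.3 to 83.7), against 41.4% of all paired genes, a share inside that interval. After Charon the strongest were trbd, a deubiquitinase that dampens the pathway, opposite dmt (rank 639), and POSH, a ubiquitin ligase scaffold, opposite Ns2 (rank 955). The trbd summit was 6 bp from its TSS and gave 4.72, 5.55 and 4.04. The POSH summit gave 3.89, 2.35 and 3.82, with replicate 2 lowest. The others were imd, the adaptor, Dredd, the caspase that cleaves Relish, Diap2, the ubiquitin ligase, scny, eff and Tab2.

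Of 40 antimicrobial peptide genes 9 were in divergent pairs (22.5%, against 36.2% of all genes, a difference that was not tested), and 4 of the 9 had a member (44.4%, interval 13.7 to 78.8, against 41.4% of all paired genes). Besides AttC these were DptA, encoding Diptericin A (rank 2128, 1.23, 2.17 and 1.99), Drsl6, a drosomycin-like gene whose summit was 451 bp away (rank 6877), and BaraC. Of 13 peptidoglycan recognition proteins 5 were paired, and PGRP-SC1b, an amidase, had a member (rank 788, with 3.801, 4.05 and 3.83 in the 3 replicates). Its 3 values are close to each other. Of 23 Toll pathway genes 9 were paired and 5 of these had a member (55.6%, interval 21.2 to 86.3), an interval that contains the 41.4% of all paired genes. GNBP3, the β-glucan recognition protein, led them (rank 390, opposite orb2, with 5.68, 5.89 and 7.75), followed by pll, the Pelle kinase (rank 2023), and Traf6 (rank 3876).

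The JNK and JAK-STAT lists gave 2 genes with a member each, of 6 and 5 paired genes (33.3% and 40%, against 41.4% of all paired genes). Mkk4, a MAP kinase kinase that phosphorylates JNK, was at rank 987 with 3.83, 2.45 and 3.50. The other gene of the JNK list, aPKC (rank 3652), is an atypical protein kinase C and not a kinase of the JNK cascade. The 33.3% counts it. hop, the Janus kinase, and dome, the receptor, were at ranks 8108 and 9070, near the end of the list. Of 18 RNA silencing genes 11 were paired and 5 of these had a member (45.5%, interval 16.8 to 76.6, against 41.4% of all paired genes). spn-E, a helicase of the piRNA pathway, shared the peak at rank 234 with ND-23, a complex I subunit (5.43, 13.5 and 8, with a DRE match). Dcr-1, which processes microRNA precursors, shared rank 858 with CG6985 (3.22, 4.36 and 3.36, with an Ohler1 match), and AGO1, the microRNA Argonaute, was at rank 1810.

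Housekeeping lists varied in how often their genes were paired. Of 73 mitochondrial ribosomal protein genes 58 were in a divergent pair (79.5%), of 30 spliceosomal genes 26 (86.7%), of 21 nucleoporin genes 18 (85.7%) and of 53 general transcription factor and Mediator genes 38 (71.7%), against 36.2% of all genes. The share was lower for oxidative phosphorylation (51.7%) and translation factors (51.9%), for chaperones and the vacuolar ATPase (42.4% each), and for mitochondrial protein import (37.5%, 6 of 16). These shares were not tested against that of all genes. The share of paired genes with a member was 53.4% for mitochondrial ribosomal proteins (31 of 58, interval 39.9 to 66.7), 46.2% for spliceosomal proteins, and 50% for nucleoporins, against 41.4% of all paired genes. Cytosolic ribosomal proteins gave 29 of 53 (54.7%), oxidative phosphorylation 25 of 46 and the proteasome 15 of 26. The highest share among the 23 lists was that of the vacuolar ATPase, 10 of 14 (71.4%, interval 41.9 to 91.6), and the lowest that of peptidoglycan recognition proteins, 1 of 5. The interval of mitochondrial ribosomal proteins contains the share of all paired genes. The vacuolar ATPase is named as the highest of 23 lists, so its interval, which does not allow for that choice, is not evidence of a higher share.

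Within these lists the signals were mostly moderate. After mRpS10, the leading mitochondrial ribosomal genes were mRpL35, opposite Mitofilin (rank 305, with 5.82, 10.4 and 7.50), and mRpS28 (rank 372). Cytosolic ribosomal genes began at rank 1490 with RpL19 (2.20, 3.01 and 2.10, with a DRE match), followed by RpL34b and by RpS27, which shares its summit with the nucleoporin gene Nup37 (rank 1553). Translation factors were led by eIF3h, opposite senju (rank 186, with 9.49, 11.4 and 9.72), and eIF4EHP (rank 503). Rpt5, a proteasome ATPase, was at rank 2844, Vha14-1 of the vacuolar ATPase at rank 837, Atg4b of autophagy at rank 1455 and Rab2 at rank 1425. Nup98-96 (rank 1283) gave 0.50, 4.14 and 2.99, with replicate 1 far below the others.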

How the data were processed

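The 3 replicates are those the labels number. The members, motifs and gene lists were chosen with earlier results of these data known. Peak lists in dm6 coordinates were deposited by the authors for each replicate, for the pooled replicates (30000 peaks each, called against a control library per the text files deposited with them) and as an optimal list kept by irreproducible discovery rate. The names of the aligner and peak caller and the discovery-rate cut-off were not given in the sources used here. Signal per peak is the deposited value of the authors' caller, on a scale set by caller and library. The deposited −log10 q-value is a single number throughout the optimal list and was not used for ranking. Summit offsets are the other column of the deposited lists used. Sequencing depth is unknown, since the lists hold no read counts.

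TSSs came from Ensembl release 115 and sequence from RefSeq release 6, with coordinates 1-based. Where several TSS pairs were in reach, the closest named the member. A gene pair is 1 minus-strand and 1 plus-strand gene with TSSs at most 1000 bp apart. For occupancy, a one-gene promoter is that of a gene with no partner and no other gene's TSS within 500 bp. For position, signal, matching and motifs, one-gene promoters are those of the one-gene promoter summits, whose gene may have a partner. Replicate values used the 9419 strongest peaks of each replicate, and summits within 100 bp counted as matched. Differences over 3 replicates were tested by exact two-sided sign-flip permutation (8 patterns), and shares carry exact Clopper-Pearson 95% intervals. The named peaks are the 20 of highest signal, the 10 of highest signal with a κB match, 3 genes per list and those at the extremes of the rule. A gene that this choice would name is not reported here. Python 3.11.15, NumPy 2.4.6 and SciPy 1.17.1 were used, and the functions were tested on simulated data.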

Additional observations from a re-analysis of the deposited data

Results flagged for a closer look

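Peaks of the pooled list below the optimal list were not used above. Of the 1572 gene pairs without a member, 367 held such a weaker summit within 500 bp of both TSSs (23.3%, exact 95% interval 21.3 to 25.5). Of 6595 one-gene promoters without an optimal summit, 1322 held one (20.05%, interval 19.1 to 21.0). Neither kind of summit was found at 1205 of the 2667 pairs. Single samples were not tested as outliers, since a group of 3 is too small for that.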

How the results depend on the processing

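Of 66 alternative values, 63 kept the direction of the reported result and 3 did not. With the 50% of peaks of highest signal, the log2 difference in relative signal was -0.093 and the difference in summits matched in all replicates -4.92 points. Without replicate 2 the latter was -3.16 points. The cause was not tested. Leaving out 1 replicate in turn gave 13.4 to 16.2 points for occupancy, 0.05 to 0.09 for the log2 difference in signal, -2.63 to -2.45 points for κB, 5.25 to 5.63 for DRE, 5.20 to 5.94 for Ohler1, 30.2 to 31.8 for the excess between the TSSs and -3.16 to 5.35 for matched summits. For all but the matched summits, the optimal list was then also cut to summits matched in both remaining replicates. Those ranges thus reflect this cut as well as the replicate left out. With 2 replicates the smallest permutation p is 0.5. The values also moved by over 1.5 times with class means in place of medians (0.04 for the log2 signal difference), with the 50% of peaks of highest signal (-3.53 points for κB) and with the longer Ohler1 form (3.55 points). The difference in matched summits moved from 2.36 to 5.56 points with the 250 bp limit and to 4.29 with matching within 200 bp. Each difference between promoter classes was taken within a replicate. What depth limits cannot be said, since the depth is unknown.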
